A study of Mus musculus with 4 samples.

Results

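The collagen gene family was followed in mouse brain after permanent middle cerebral artery occlusion (PMCAO), the blocking of a main artery of the forebrain. Its members were all array probes, control spots left out, whose gene name in the scanner files had the form Col, a number, a, a number. The rule found 40 genes on 78 probes, out of 27671 gene names on 41174 probes. They comprised 6 basement membrane collagens, 11 fibrillar collagens and 23 other collagens. Signal allowed 37 of the 40 genes to be tested, among 19135 tested genes in all. The others, Col4a3, Col10a1 and Col28a1, had no probe above background in any channel.

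The study set PMCAO mice against sham-operated mice at 6 h and 24 h after an injection of saline into the cerebral ventricle, which both kinds of mice received. PMCAO was made with a nylon filament pushed through the common carotid artery into the middle cerebral artery, while sham surgery laid bare the external carotid artery and ended with sutures. All were male C57BL/6J mice aged 8 to 12 weeks, 3 to a group, and the labels name no transgene or further treatment. Each time was measured on 2 two-colour arrays of opposite dye orientation: sample 1 had PMCAO RNA in Cy5 and sample 2 had it in Cy3. How the RNA of 3 mice was combined is not stated. Neither is it stated that the samples of a time come from separate RNA, so p-values reflect the spread from array to array and that spread may be only technical. The labels give the tissue as brain, and the series text says that the arrays used contralateral hemispheres, those away from the occluded artery.

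A collagen is a rope of protein chains wound around each other, and each chain is built largely from a repeat in which glycine, the smallest amino acid, recurs at a fixed spacing. Fibrillar collagens (types I, II, III, V, XI, XXIV and XXVII) form the cables of connective tissue, while type IV forms the sheet-like network of basement membranes. In brain, most of this matrix lies in the basement membranes of blood vessels, in the vessel walls and in the meninges, and little lies between neurons. Procollagen chains are hydroxylated and folded in the endoplasmic reticulum, cut and crosslinked outside the cell, and bound there by laminins, nidogens, proteoglycans and cell receptors.

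The repeat can be read directly in the probes. The 3 sequences that follow are shown because they carry the family's defining feature, with the glycine codons (GGN, in one reading frame without a stop codon) in capitals. They were the only 3 of the 41174 probes in which GGN recurred at the spacing of the repeat through the whole probe, 1 codon in every 3.
Col11a2 (chr17:32131401-32131567, + strand, mm7): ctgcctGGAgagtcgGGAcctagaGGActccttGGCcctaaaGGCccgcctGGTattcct
Col5a1 (chr2:27994034-27996457, + strand, mm7): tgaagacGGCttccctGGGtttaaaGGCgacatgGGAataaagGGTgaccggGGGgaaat
Col5a3 (chr9:20655471-20656200, - strand, mm7): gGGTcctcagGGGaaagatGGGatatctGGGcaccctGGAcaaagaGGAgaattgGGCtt
Each of these probes is 60 bases long and covers more than 60 bases of chromosome, so each spans an exon junction. They were dim: the Col11a2 probe was well above background in 3 of 8 channels, the Col5a1 probe in 4 and the Col5a3 probe in 0. The values of these genes given further on come from another, brighter probe of each gene.

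Signal was of similar quality on the 4 arrays. The share of spots with signal well over background was 66.3% to 73.7% in PMCAO channels and 67.3% to 73.6% in sham channels, and 112 to 142 spots per array were flagged as outliers. Log2 ratios of the arrays of one time correlated at 0.58 at 6 h and 0.67 at 24 h over all tested genes. Over the 37 collagens these values were 0.84 and 0.79. Arrays of different times but the same dye orientation correlated at 0.61 (sample 1) and 0.63 (sample 2) over all tested genes. Over the collagens the same-dye values were 0.66 and 0.70. The labelled tissue was borne out by its markers: 10 of 10 neuronal, 8 of 8 astrocyte and 8 of 8 oligodendrocyte marker genes were above background in all 8 channels.

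At 6 h, 2 collagen genes were higher in PMCAO than in sham, Col4a1 and Col4a2, and 0 were lower (limma with Benjamini-Hochberg adjustment over all tested genes, threshold 0.05). Over all genes, 0.815% were higher and 0.0366% lower. Without adjustment, limma p was under 0.05 for 8 collagens that were higher and 3 that were lower, beside 1179 and 494 of all 19135 genes. At 24 h, 9 collagens were higher, Col4a1, Col4a2, Col5a3, Col3a1, Col5a2, Col18a1, Col7a1, Col16a1 and Col6a1, and 1, Col22a1, was lower. The matching shares of all genes were 7.84% higher and 4.52% lower. Without adjustment at 0.05, 12 collagens were higher and 7 lower at 24 h, beside 2968 and 2539 of all genes. The median log2 ratio of the 37 collagens was 0.06 at 6 h and 0.12 at 24 h, against -0.01 and 0.00 over all genes, and it was above 0 at both times under each scaling tried. The 6 h count of higher collagens was 1 without either of the 6 h arrays and 4 without either of the 24 h arrays, where 1 was also lower. The 24 h count of lower collagens was 6 without sample 1 of 24 h and 0 without either of the 6 h arrays. With Agilent's own processed signals 7 collagens were higher and 2 lower at 24 h, and the split over all genes was 1243 higher and 1162 lower, against 1500 higher and 864 lower with loess. With median centring in place of loess, Col4a1 had ratios of 1.14 at 6 h and 1.47 at 24 h, but no collagen passed the test, and over all genes 0 passed at 6 h and 13 at 24 h.

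**Figure D1:**
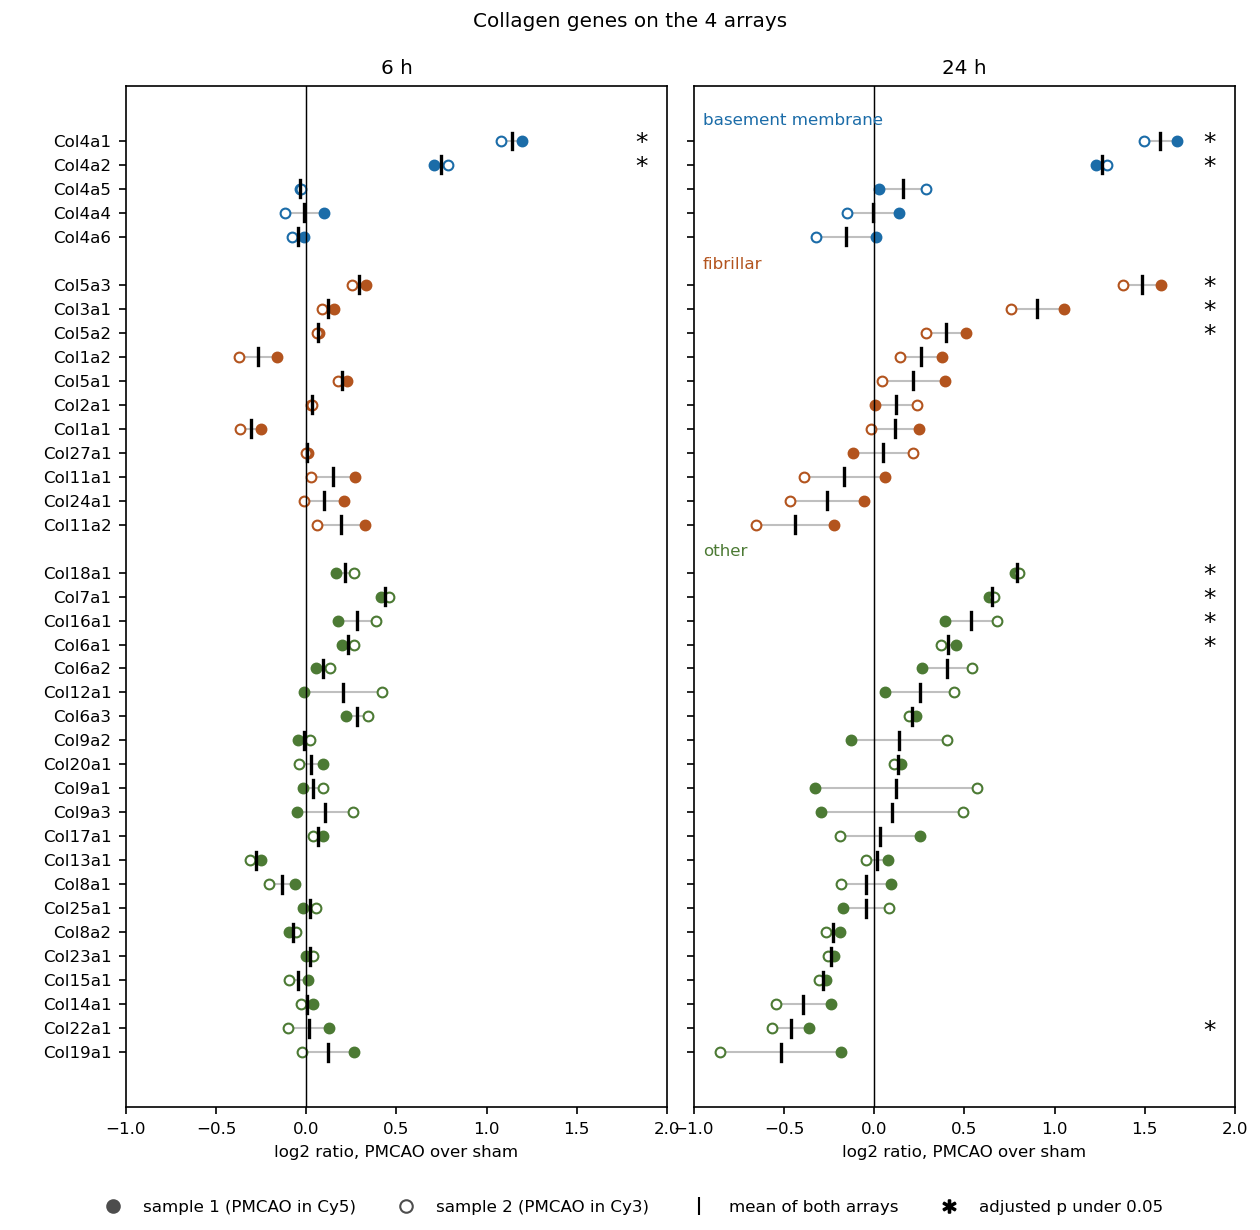
Log2 ratios of PMCAO over sham for the 37 tested collagen genes at 6 h (left) and 24 h (right), with genes grouped by class and ordered by the 24 h mean. Filled points are sample 1, open points sample 2, bars their mean, and stars mark adjusted p under 0.05. Col4a1 and Col4a2 stand apart at 6 h, and Col4a1, Col5a3, Col4a2 and Col3a1 have the highest ratios at 24 h.

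Of the 5 basement membrane collagens tested, Col4a1 and Col4a2 were higher at both times, and the class median was -0.01 at 6 h and 0.16 at 24 h. Col4a1 and Col4a2 encode chains that are woven together in the basement membrane of nearly every blood vessel. Col4a1 (probe at chr8:11167020-11167079, mm7) had log2 levels of 10.50 and 10.32 in PMCAO at 6 h, against 9.30 and 9.24 in sham. At 24 h its levels were 10.90 and 10.79 in PMCAO, against 9.22 and 9.29 in sham. Every PMCAO value lay above every sham value, and the 24 h PMCAO values lay above the 6 h ones. The log2 ratio was 1.14 ± 0.09 at 6 h (SE, n = 2 arrays; 2.20-fold, limma adjusted p = 0.0123) and 1.59 ± 0.09 at 24 h (3.01-fold, adjusted p = 0.000706).

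Col4a2 (probe at chr8:11416851-11416910, mm7) had levels of 10.34 and 10.30 in PMCAO at 6 h, against 9.63 and 9.51 in sham. At 24 h it had 10.97 and 10.96 in PMCAO, against 9.74 and 9.67 in sham. The groups did not overlap at either time. Its ratio was 0.75 ± 0.08 at 6 h (1.68-fold, adjusted p = 0.0264) and 1.26 ± 0.08 at 24 h (2.40-fold, adjusted p = 0.000962). The 6 h call was lost without sample 1 of 6 h (adjusted p = 0.162) and without sample 2 of 6 h (0.386), whereas that of Col4a1 was kept in both cases (0.0217 and 0.0120).

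The ratios of the pair grew between the times by 0.45 for Col4a1 and 0.51 for Col4a2 on the log2 scale, which did not pass the test of the difference (limma adjusted p = 0.200 and 0.118). The chains of type IV that are known from kidney, inner ear, lung and eye gave other values. Col4a4 was at -0.01 at 6 h and -0.01 at 24 h. Col4a5 was at -0.03 and 0.16, and Col4a6 at -0.05 and -0.16. None of these passed the test at either time, also without adjustment at 0.05. The arrays of Col4a4 fell on opposite sides of 0 at both times.

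The genes that moved together are also neighbours. Col4a1 and Col4a2 lie head to head on chromosome 8 and are read in opposite directions. Their starts in RefSeq (build GRCm38.p6) are 21 bases apart, and the windows from 250 bases before to 50 bases after each start share 78 bases. By these starts the genes overlap over 22 bases, which are the first bases of both and not a gap between them. The stretch from one start to the other is shown because both genes are read out of it, Col4a2 along the strand printed and Col4a1 along the opposite one.
Col4a1 and Col4a2 start sites (chr8:11312805-11312826, + strand, GRCm38.p6): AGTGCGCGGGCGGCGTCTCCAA
It holds one GC box, a match to GGGCGG, which on the printed strand runs across the middle of the sequence. Of 32851 RefSeq windows of this length, 35.7% hold GGGCGG on either strand, 37.4% hold CCAAT, 7.81% hold TGANTCA and 19.6% hold ACGTG. The Col4a1 window held 1 GC box and the Col4a2 window 3, each held 1 CCAAT, and neither held TGANTCA or ACGTG. Among neighbouring collagen genes elsewhere, Col3a1 and Col5a2 on chromosome 1 were both higher at 24 h, and Col6a1 was higher beside Col6a2 on chromosome 10. The pairs Col4a4 with Col4a3, Col4a6 with Col4a5 and Col9a1 with Col19a1 held no called gene, but Col4a3 was not tested.

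The second probes of the pair lie in another part of each gene and are shown because they repeat the measurement on separate sequence.
Col4a1 (chr8:11167857-11169691, - strand, mm7): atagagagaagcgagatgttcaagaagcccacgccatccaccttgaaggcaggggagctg
Col4a2 (chr8:11416191-11416250, + strand, mm7): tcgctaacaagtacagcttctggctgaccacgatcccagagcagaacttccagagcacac
At 24 h this Col4a1 probe read 1.37 and 1.49 on the log2 scale and this Col4a2 probe 1.18 and 1.44, each past the test (limma adjusted p = 0.000927 and 0.00243 with every probe tested). At 6 h the Col4a1 probe read 0.48 and 0.46, under the 1.20 and 1.08 of the brighter probe. The Col4a2 probe read 0.47 and 0.66 at 6 h, beside 0.71 and 0.79 of the brighter one. Neither second probe passed the test at 6 h (adjusted p = 0.122 and 0.141).

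**Figure D2:**
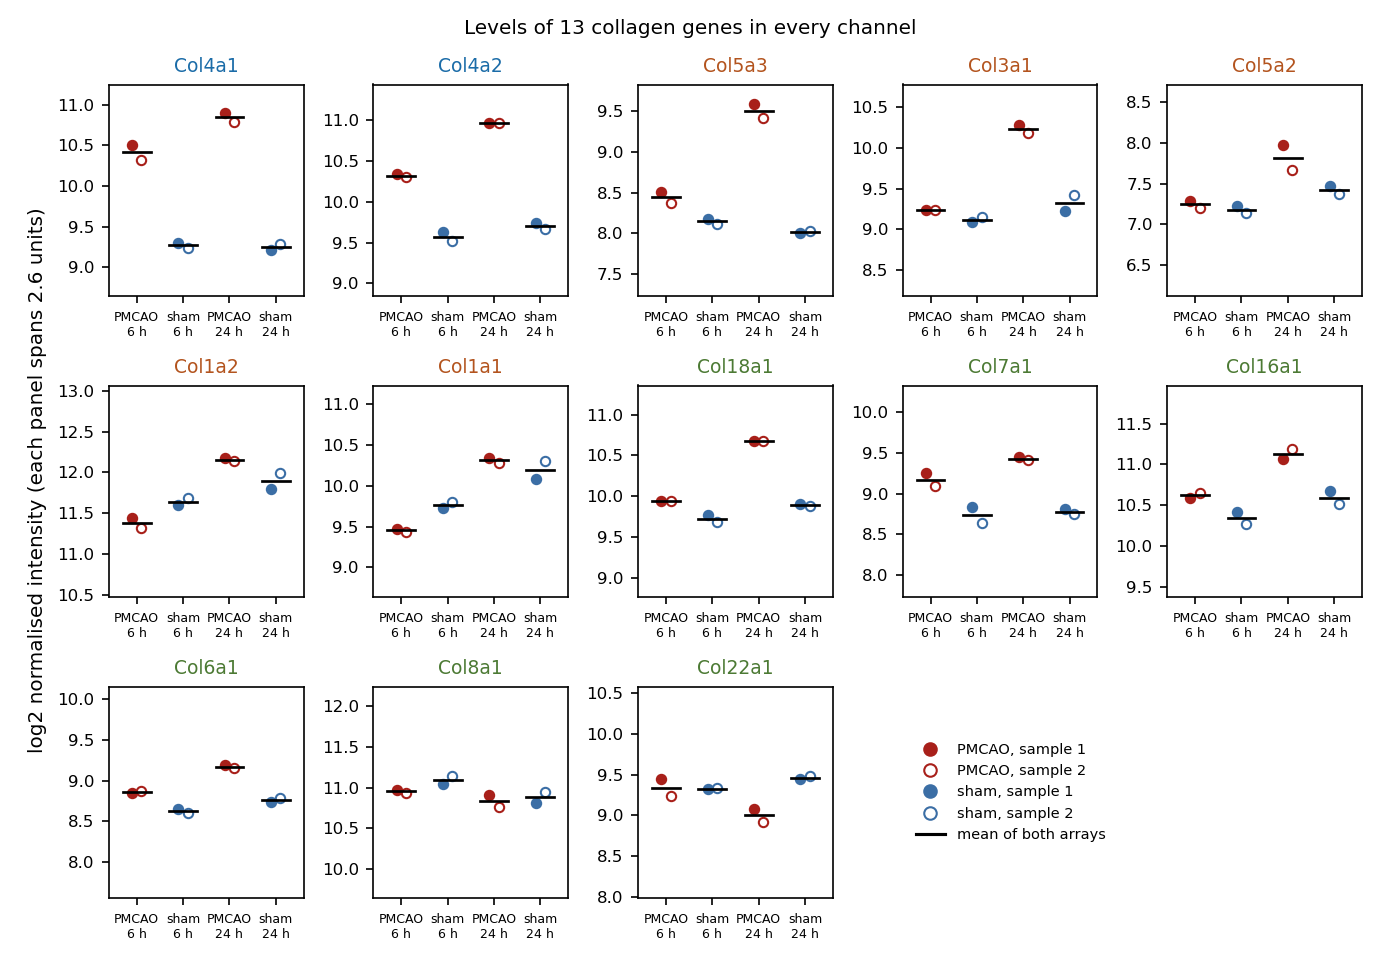
Log2 normalised intensity in every channel for 13 collagen genes: those past a test of PMCAO over sham and the 2 brightest of each class. PMCAO stands left of sham at each time, filled points are sample 1, open points sample 2, and lines are means. In Col4a1 and Col4a2 PMCAO lies above sham at both times, whereas Col5a3 and Col3a1 separate clearly at 24 h.

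Among the 11 fibrillar collagens, 0 passed the test at 6 h (in limma without adjustment at 0.05, 1 was higher and 2 were lower). At 24 h, 3 were higher and 0 lower (4 and 1 without adjustment). The class median was 0.10 at 6 h and 0.12 at 24 h. Col5a3, a less common chain of type V collagen, had the highest ratio. Type V is a minor collagen that sits inside the fibrils of type I and sets their width. Col5a3 (probe at chr9:20639940-20639999, mm7) had levels of 9.59 and 9.41 in PMCAO at 24 h, against 8.00 and 8.03 in sham. At 6 h it had 8.51 and 8.37 in PMCAO, against 8.18 and 8.12 in sham. PMCAO was above sham on all 4 arrays, with a narrow gap at 6 h and a wide one at 24 h. Its ratio was 1.48 ± 0.09 at 24 h (2.80-fold, limma adjusted p = 0.000829) and 0.29 ± 0.09 at 6 h (adjusted p = 0.401).

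Col5a3 was the 1 collagen whose ratio differed between the times: 24 h exceeded 6 h by 1.19 ± 0.13 (limma adjusted p = 0.0210), where 1.29% of all genes had a higher and 0.298% a lower ratio at 24 h. Without adjustment at 0.05, another 8 collagens were higher and 4 lower, where 1469 of all 19135 genes were higher and 1246 lower. With Agilent's processed signals the difference was 1.25 (adjusted p = 0.0656), which does not pass. The number of collagens with a higher ratio at 24 h was 5 without sample 1 of 24 h and 7 without sample 2 of 24 h, and that with a lower ratio was 6 without sample 1 of 24 h. The 250 bases before its start are shown because Col5a3 was the collagen that passed this test. Capitals mark 2 GC boxes (GGGCGG) and 1 CCAAT, searched on both strands.
Col5a3 promoter (chr9:20815068-20815317, - strand, GRCm38.p6): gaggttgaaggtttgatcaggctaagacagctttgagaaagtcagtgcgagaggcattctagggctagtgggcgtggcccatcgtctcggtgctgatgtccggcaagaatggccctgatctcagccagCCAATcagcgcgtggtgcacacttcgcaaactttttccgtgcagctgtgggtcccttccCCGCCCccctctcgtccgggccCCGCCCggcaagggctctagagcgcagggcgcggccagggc
Of the 9 collagens higher at 24 h, 8 had a RefSeq window. GGGCGG was found in 6 of these, CCAAT in 6, TGANTCA in 1 (Col6a1) and ACGTG in 0. The 1 GGGCGG of the Col4a1 window lies in the bases shared with the Col4a2 window, so that site counts for both genes. Of all 35 collagen windows (32 genes), 20 held GGGCGG, 12 CCAAT, 1 TGANTCA and 4 ACGTG. The shares of all RefSeq windows were 35.7%, 37.4%, 7.81% and 19.6%.

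The partners of Col5a3 within type V had lower ratios. Col5a2 (probe at chr1:45613427-45613486, mm7), which is part of nearly every type V molecule, had levels of 7.98 and 7.67 in PMCAO at 24 h, against 7.47 and 7.38 in sham. The groups did not overlap. Its ratio was 0.40 ± 0.09 at 24 h (1.32-fold, limma adjusted p = 0.0491) and 0.06 at 6 h. This call was the closest to the threshold, and the adjusted p was 0.119 without either 6 h array and 0.0988 without sample 1 of 24 h. With every probe tested, the Col5a2 call at 24 h was lost (limma adjusted p = 0.0548). Col5a1, the most common chain of the type, was at 0.20 at 6 h and 0.22 at 24 h and passed at neither time (adjusted p = 0.767 and 0.258).

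Col3a1 (probe at chr1:45585395-45585454, mm7) encodes type III collagen, an elastic fibril of vessel walls made of identical chains. It had levels of 10.28 and 10.18 in PMCAO at 24 h, against 9.23 and 9.42 in sham. At 6 h it had 9.24 and 9.23 in PMCAO, against 9.09 and 9.15 in sham. The groups separated widely at 24 h and narrowly at 6 h. The ratio was 0.91 ± 0.10 at 24 h (1.87-fold, limma adjusted p = 0.00594) and 0.12 ± 0.10 at 6 h (adjusted p = 0.948), and the difference of 0.79 between the times did not pass (adjusted p = 0.0773).

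Type I collagen, the main fibril of skin, bone and meninges, gave the brightest probes of the class and a different pattern. Col1a2 had levels of 11.44 and 11.32 in PMCAO at 6 h, against 11.60 and 11.69 in sham, and 12.18 and 12.14 in PMCAO at 24 h, against 11.80 and 11.99 in sham. PMCAO lay under sham at 6 h and over it at 24 h. The ratio was -0.27 ± 0.10 at 6 h (limma adjusted p = 0.552) and 0.26 ± 0.10 at 24 h (adjusted p = 0.171), and neither value nor their difference of 0.53 passed (adjusted p = 0.182). Col1a1 had levels of 9.48 and 9.43 in PMCAO at 6 h, against 9.73 and 9.80 in sham, and 10.34 and 10.29 in PMCAO at 24 h, against 10.09 and 10.31 in sham. It too lay under sham at 6 h, while the groups overlapped at 24 h. Its ratio was -0.31 ± 0.10 at 6 h and 0.11 ± 0.10 at 24 h, and neither passed (adjusted p = 0.421 and 0.523).

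The remaining fibrillar collagens, best known from cartilage and from developing skeleton, stayed under the threshold at both times. Col11a2 was the lowest at 24 h, with -0.22 and -0.66 on the 2 arrays (mean -0.44, limma adjusted p = 0.0975). Col24a1 averaged -0.26, Col11a1 -0.17, Col27a1 0.05 and Col2a1 0.12 at 24 h. At 6 h these 5 genes lay between 0.01 and 0.19.

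A pair of probes of Col2a1, the cartilage fibril gene, overlap by 40 bases and still read differently. They are shown with the shared bases in capitals.
Col2a1 brighter probe (chr15:97979257-97979316, - strand, mm7): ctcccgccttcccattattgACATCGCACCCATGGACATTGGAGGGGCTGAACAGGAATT
Col2a1 dimmer probe (chr15:97979237-97979296, - strand, mm7): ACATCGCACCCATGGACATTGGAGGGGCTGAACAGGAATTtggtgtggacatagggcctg
At 24 h the brighter one read 0.01 and 0.24 (mean 0.12) and the dimmer one 0.46 and 0.51 (mean 0.48). The dimmer probe would pass with every probe tested (limma adjusted p = 0.0231) and the brighter one would not (0.470). The value of Col2a1 therefore depends on which of 2 overlapping probes is read.

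Of the 21 other collagens that were tested, 0 passed at 6 h (in limma without adjustment at 0.05, 5 were higher and 1 was lower). At 24 h, 4 were higher and 1 lower (6 and 6 without adjustment). The class median was 0.04 at 6 h and 0.10 at 24 h, and the 24 h median was 0 with the deposited series table. Col18a1, a collagen of vessel basement membranes whose tail is cut off as endostatin, had levels of 10.68 and 10.68 in PMCAO at 24 h, against 9.90 and 9.88 in sham. At 6 h it had 9.94 and 9.94 in PMCAO, against 9.77 and 9.68 in sham. PMCAO lay above sham on every array. Its ratio was 0.79 ± 0.08 at 24 h (1.73-fold, limma adjusted p = 0.00456; probe at chr10:76707663-76707722, mm7) and 0.21 at 6 h (adjusted p = 0.548). Its second probe read 0.63 and 0.79 at 24 h and passed as well (adjusted p = 0.00896). Col15a1, the other collagen of this kind, was at -0.29 at 24 h (adjusted p = 0.0859).

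Col7a1 (probe at chr9:108695073-108695132, mm7) encodes the anchoring fibril that ties the basement membrane of skin to the tissue under it. Its levels were 9.44 and 9.41 in PMCAO at 24 h, against 8.81 and 8.74 in sham, and 9.25 and 9.09 in PMCAO at 6 h, against 8.84 and 8.64 in sham. The groups did not overlap at either time. The ratio was 0.65 ± 0.08 at 24 h (1.57-fold, limma adjusted p = 0.00776) and 0.43 ± 0.08 at 6 h (adjusted p = 0.118). Its 6 h ratio was the highest of the family after those of Col4a1 and Col4a2.

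Type VI collagen forms beaded filaments near basement membranes from 3 different chains. Col6a1 (probe at chr10:76364050-76364109, mm7) had levels of 9.19 and 9.15 in PMCAO at 24 h, against 8.74 and 8.78 in sham, a ratio of 0.41 ± 0.08 (1.33-fold, limma adjusted p = 0.0330). Col6a2 had a similar ratio of 0.40 ± 0.10 and missed the threshold (adjusted p = 0.0587), and Col6a3 was at 0.21 (adjusted p = 0.169). At 6 h the 3 chains were at 0.23, 0.09 and 0.28. The Col6a1 call was lost with Agilent's processed signals (adjusted p = 0.101) and without either 6 h array (0.0974).

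Collagens that sit on the surface of fibrils gave calls in both directions. Col16a1 (probe at chr4:129543748-129543807, mm7) was the second brightest of the other collagens, with levels of 11.06 and 11.19 in PMCAO at 24 h, against 10.67 and 10.51 in sham, and 10.59 and 10.65 in PMCAO at 6 h, against 10.41 and 10.26 in sham. The groups did not overlap at either time. Its ratio was 0.54 ± 0.11 at 24 h (1.45-fold, limma adjusted p = 0.0357; 0.0759 with Agilent's processed signals) and 0.28 at 6 h (adjusted p = 0.554).

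Col22a1, known from the junctions of muscle and tendon, was the 1 collagen that was lower. Its probe (chr15:71881125-71881184, mm7) had levels of 9.08 and 8.92 in PMCAO at 24 h, against 9.45 and 9.48 in sham, and 9.45 and 9.23 in PMCAO at 6 h, against 9.32 and 9.34 in sham. The groups separated at 24 h and overlapped at 6 h. The ratio was -0.46 ± 0.10 at 24 h (limma adjusted p = 0.0440) and 0.01 at 6 h. A second probe of the gene read 0.35 and 0.07 at 24 h (adjusted p = 0.243), on the other side of 0, and the adjusted p of the first was 0.0616 without either 6 h array.

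Other collagens of fibril surfaces were lower at 24 h without passing the test. Col19a1 read -0.18 and -0.85 (mean -0.52, limma adjusted p = 0.122) and Col14a1 read -0.24 and -0.55 (mean -0.39, adjusted p = 0.0693). Col12a1 averaged 0.25 and Col20a1 0.13. The 3 chains of type IX differed between the dye orientations: Col9a1 read -0.33 and 0.57, Col9a2 -0.13 and 0.40, and Col9a3 -0.30 and 0.49. Their means of 0.10 to 0.14 at 24 h lie within that spread.

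Col8a1, the brightest of the other collagens and a short-chain collagen of the layer under the endothelium, had levels of 10.91 and 10.77 in PMCAO at 24 h, against 10.82 and 10.95 in sham. At 6 h it had 10.98 and 10.94 in PMCAO, against 11.04 and 11.14 in sham. The groups overlapped at 24 h, and the ratio was -0.13 at 6 h and -0.05 at 24 h. Its partner Col8a2 was at -0.08 and -0.23. The 4 collagens that span the cell membrane, Col13a1, Col17a1, Col23a1 and Col25a1, lay between -0.24 and 0.03 at 24 h. At 6 h Col13a1 was at -0.25 and -0.31 on the 2 arrays (limma adjusted p = 0.362), and the others were between 0.02 and 0.06.

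**Figure D3:**
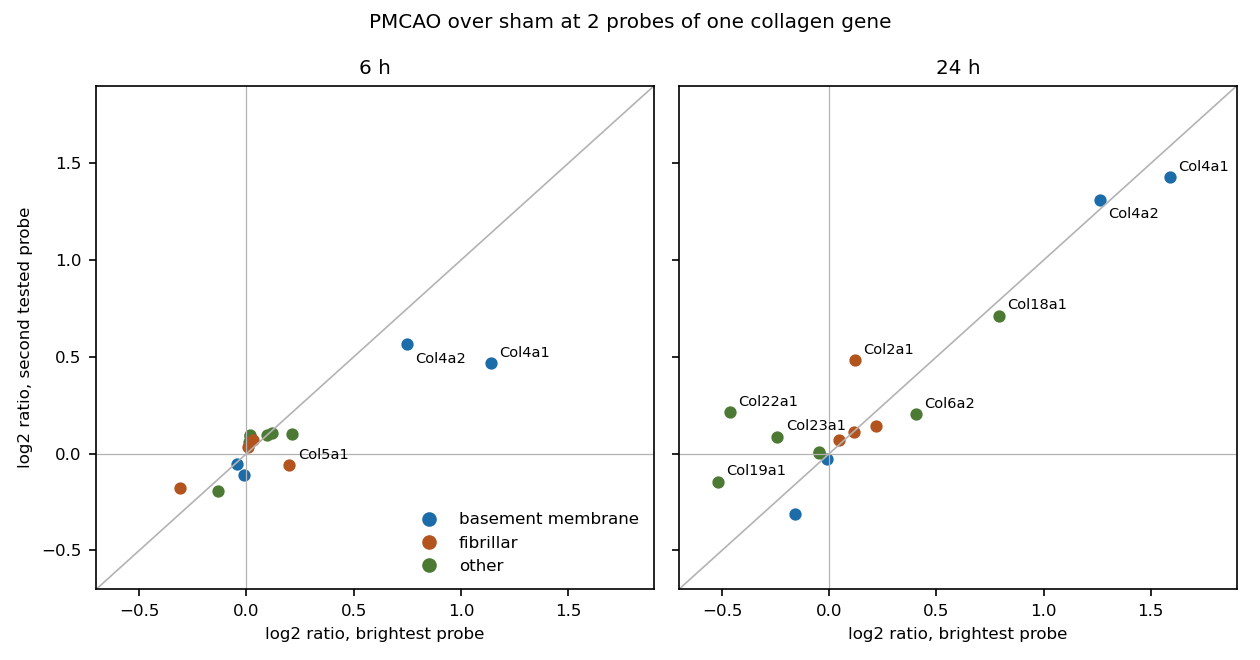
Log2 ratio of PMCAO over sham at the brightest probe (horizontal axis) and at the second tested probe (vertical axis) of the 15 collagen genes with 2 tested probes, at 6 h (left) and 24 h (right). The diagonal marks equal values. Col4a1 lies under it at 6 h and near it at 24 h, and Col22a1 has opposite signs at 24 h.

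In 15 genes 2 probes were tested, and at 24 h their ratios had the same sign in 11 and opposite signs in 4 (Col22a1, Col23a1, Col25a1 and Col8a1). In 1 gene, Col22a1, they differed by more than 0.5 on the log2 scale. With every probe tested, the second probes of Col4a1 and Col4a2 did not pass at 6 h, and those of Col22a1 and Col2a1 stood on the other side of the threshold from the brighter probe at 24 h. Of the called genes, Col5a3, Col3a1, Col5a2, Col7a1, Col16a1 and Col6a1 had 1 tested probe each. Among these, Col5a2 did not pass at 24 h with every probe tested (limma adjusted p = 0.0548).

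The levels of 2 of 37 collagens in sham brain also differed between the times. Sham at 24 h against sham at 6 h gave 2 collagens that were higher and 0 that were lower in the separate-channel limma model. Over all genes, 1.87% were higher and 1.73% lower. Without adjustment at 0.05, 8 collagens were higher and 2 lower, beside 1953 and 2065 of 19124 genes. Col1a1 was higher in sham at 24 h than in sham at 6 h by 0.43 ± 0.09 (adjusted p = 0.0380), and Col8a2 by 0.42 ± 0.07 (adjusted p = 0.0183). The corresponding values were 0.25 for Col1a2 (adjusted p = 0.146) and 0.21 for Col3a1 (adjusted p = 0.190). Without sample 1 or sample 2 of 6 h the count of higher collagens was 0, and without sample 2 of 24 h it was 1. For Col4a1 the sham change was -0.02, for Col5a3 -0.13 and for Col4a2 0.13.

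The machinery that makes, fixes and binds collagen was read from lists of named genes. None of the tested genes on these lists passed at 6 h, and without adjustment at 0.05 in limma 0 to 3 genes per list were higher and 0 were lower. At 24 h, of 20 genes that fold and modify procollagen, 3 were higher and 0 lower, with a list median of 0.17. Over all genes, 7.84% were higher and 4.52% lower at 24 h, which is the background for this and the following lists. The 3 calls were 2 with Agilent's processed signals and 1 with the deposited series table. They were Fkbp10 (0.53 and 0.65; mean 0.59, adjusted p = 0.0138), a prolyl isomerase, Serpinh1 (0.49 and 0.59; mean 0.54, adjusted p = 0.0219), the chaperone Hsp47 that binds the triple helix, and P4hb (0.41 and 0.67; mean 0.54, adjusted p = 0.0271), a subunit of prolyl 4-hydroxylase. P4ha2, a catalytic subunit of that enzyme, was at 0.29 and did not pass (adjusted p = 0.178).

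Of 11 genes for cleavage and crosslinking outside the cell, 3 were higher and 0 lower at 24 h, and the median was 0.19. All 3 encode lysyl oxidases, the copper enzymes that start collagen crosslinks. Lox read 1.55 and 1.26 (mean 1.41, 2.65-fold, limma adjusted p = 0.00123), beside 0.19 and 0.14 at 6 h. Loxl1 averaged 0.87 (adjusted p = 0.00521) and Loxl2 0.74 (adjusted p = 0.00521). Of 8 collagen receptors, 0 passed at either time (at 24 h without adjustment at 0.05 in limma, 2 were higher and 0 lower). Itga11, an integrin chain for fibrillar collagen, had the highest values of this list, 0.93 and 0.75 at 6 h (mean 0.84, adjusted p = 0.115).

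Of 14 other components of basement membranes, 5 were higher and 0 lower at 24 h, with a median of 0.34 (0.05 at 6 h), the highest of these lists. They were Nid1 (0.84, limma adjusted p = 0.0204), a bridge between laminin and type IV collagen, the laminin chains Lama5 (0.79, adjusted p = 0.00526), Lama4 (0.55, adjusted p = 0.0203) and Lamc1 (0.46, adjusted p = 0.0310), and Sparc (0.46, adjusted p = 0.0356), a secreted collagen-binding protein. With Agilent's processed signals 3 of the 14 passed.

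Proteoglycans and other proteins that bind fibrils went both ways: of 11 tested, 1 was higher and 2 were lower at 24 h. Dcn, decorin, read 1.18 and 1.08 (mean 1.13, 2.19-fold, limma adjusted p = 0.00129). Ogn, osteoglycin, fell by 0.72 (adjusted p = 0.0246) and Omd, osteomodulin, fell by 0.60 (adjusted p = 0.0117). The list median was 0.10, and -0.02 with median centring. Among 18 genes of the transforming growth factor beta axis, a growth factor family known to raise collagen transcription, 6 were higher and 1 was lower. Thbs1, thrombospondin 1, which can activate the latent factor, had the highest ratio at 2.38 (5.19-fold, adjusted p = 0.000223). Next came Tgfbi (1.44, adjusted p = 0.000620), Ltbp2 (1.14, adjusted p = 0.00336), the ligand Tgfb1 (0.76, adjusted p = 0.00593), Ccn2 (0.74, adjusted p = 0.00591) and the receptor Tgfbr2 (0.62, adjusted p = 0.0123). Ltbp4, a binding protein of the latent factor, fell by 0.40 (adjusted p = 0.0358).

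**Figure D4:**
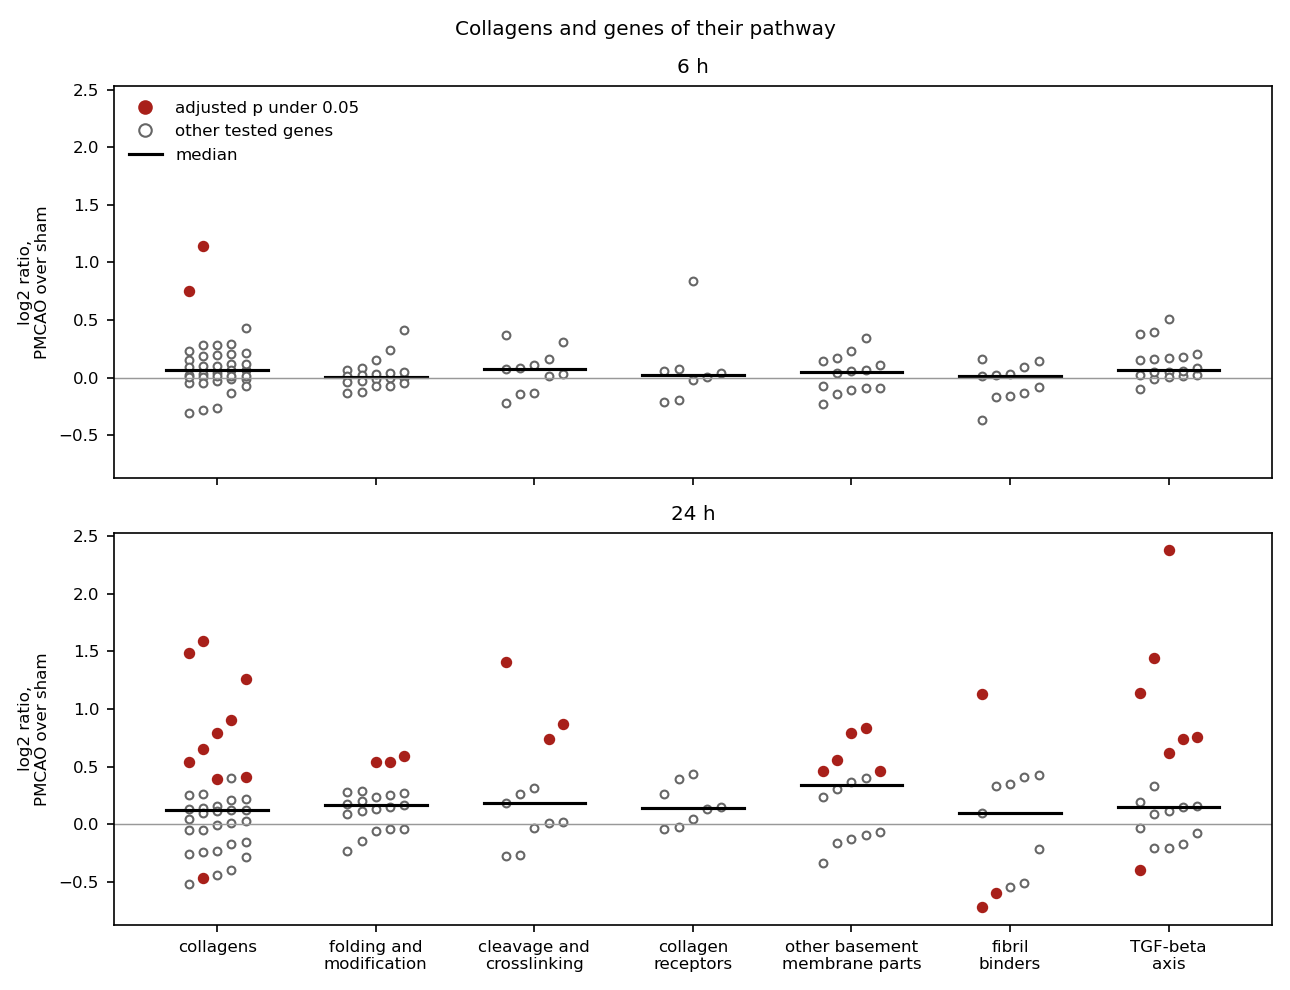
Log2 ratios of PMCAO over sham at 6 h (top) and 24 h (bottom) for the 37 collagens and the tested genes of 6 pathway lists. Red points passed the test (adjusted p under 0.05), open points did not, and lines are medians. At 6 h the red points are Col4a1 and Col4a2, and at 24 h they appear in every list except the receptors.

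Some markers of cell types known to make collagen were higher at 24 h, and in RNA from whole tissue more cells of a type and more RNA per cell cannot be told apart. Of 15 endothelial markers, 6 were higher and 1 (Slco1a4) was lower at 24 h, against a background of 7.84% and 4.52% of all genes, and the list median was 0.52. Their summed linear level was 94264 to 96318 in PMCAO, against 64706 to 65512 in sham. At 6 h, where Col4a1 and Col4a2 were higher, 0 endothelial markers were higher and 1 was lower (Slco1a4, -1.03, limma adjusted p = 0.0170). Without adjustment at 0.05, 2 were higher and 5 lower at 6 h, 5 of 15 ratios were above 0, and the median was -0.13. The 6 h sums, in which bright genes weigh most, were 72571 to 75063 in PMCAO, against 66441 to 67281 in sham.

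Of 11 markers of meningeal and perivascular fibroblasts, 3 (Aldh1a2, Dcn and Foxc1) were higher and 0 lower at 24 h, with a median of 0.30. Their 24 h sums, in which bright genes again weigh most, were 136815 to 151611 in PMCAO, against 85965 to 103265 in sham. The type I genes Col1a1 and Col1a2 did not pass at that time. Of 12 markers of pericytes and smooth muscle, 2 (Kcnj8 and Abcc9) were higher and 0 lower, and 6 of the 12 ratios were above 0. Their median was 0.11, and -0.02 with median centring, and their sums were 36814 to 36885 in PMCAO, against 33297 to 33444 in sham. All of the tested markers of these 3 lists were above background in all 8 channels. Glial lists differed at 24 h. Of 8 oligodendrocyte markers, 0 were higher and 0 lower, with a median of 0.03. Of 8 astrocyte markers, 4 were higher and 0 lower (Gfap 1.25, limma adjusted p = 0.00371), or 1 with Agilent's processed signals, and of 8 markers of microglia and macrophages 1 (Cd68) was higher and 2 (P2ry12 and Tmem119) were lower. The part of any of these cell types in the collagen ratios was not tested.

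Genes listed as markers of tissue from outside the brain were read in the same way. Whether brain cells also express them was not tested, so their values do not show where the signal came from. The summed level of 7 bone and cartilage markers at 24 h was 2266 to 2356 in PMCAO, against 2651 to 2838 in sham, with 1 higher (Acan), 1 lower (Alpl), and Ibsp, Matn1 and Matn3 not tested for want of signal. That of 6 skeletal muscle markers was 2038 to 2131 in PMCAO, against 1867 to 1946 in sham, with 0 called in limma (1 higher without adjustment at 0.05) and Ckm and Tnnt3 not tested. Of 3 red blood cell markers, 1 (Hba-a1) was higher, with sums of 30371 to 31296 in PMCAO, against 20929 to 22247 in sham.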

How the data were processed

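RNA from brain of PMCAO and sham mice was measured on 4 two-colour arrays. In the deposited scanner tables each spot has an intensity for mean signal, local background and processed signal in both dyes. They also give a deposited log10 ratio, red over green. Per the file headers, Agilent Feature Extraction 9.5.3.1 wrote them, and it had removed background from the processed signals and balanced the dyes. The deposited series table holds 1 score per probe and array, whose size is close to the linear Cy5 over Cy3 ratio and whose sign has no stated meaning. Probe coordinates are those of mm7, per the file headers.

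In limma 3.58.1 (R 4.3.3), mean signals were corrected by normexp (offset 50) and normalised by loess within arrays, with control spots at weight 0 and outlier-flagged spots removed. Every log2 ratio was oriented as PMCAO over sham, and spots of a probe were averaged. The brightest probe stood for its gene. Testing required signal well over background on both arrays for 1 or more of the 4 RNA groups. One linear model of all 4 arrays (2 residual and 3.53 prior degrees of freedom) gave both times and their difference, with Benjamini-Hochberg adjustment over 19135 genes at 0.05. Levels and the sham comparison came from a separate-channel model after Aquantile normalisation (intraspot correlation -0.413), with outlier-flagged spots kept and 19124 genes. Errors are standard errors of the model. The number of arrays limits the precision. The 4 arrays share 1 slide and 1 scan, which leaves no such batch to test.

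Of 41174 probes, 22951 were named through accessions, 6659 through symbols and 3109 through older symbols in a RefSeq table (GRCm38.p6), and 8455 kept the files' names. RefSeq promoters matched 32 of 40 collagen genes. The fits were tested on simulated ratios. Collagen classes, gene lists and tests were chosen with earlier results of these data known. Named genes were all collagens, with levels for those past a test and the 2 brightest per class, up to 4 genes with the smallest p per pathway list and time, those past the test, and marker genes. Alternatives covered the background correction, normalisation, filter, probe choice, outlier flags, samples fitted, a replicate block and arrays left out.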

Additional observations from a re-analysis of the deposited data

Results flagged for a closer look

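By the test of the difference itself, the PMCAO over sham ratio differed between the times in 1 of 37 collagens. It also differed in 4 pathway genes: 1 of 11 for cleavage and crosslinking, 1 of 11 fibril binders and 2 of 18 of the transforming growth factor beta axis. In each the 24 h ratio was above the 6 h ratio. The lists of 20 folding genes, 8 receptors and 14 other basement membrane components had 0. Over all genes, 1.29% had a higher and 0.298% a lower ratio at 24 h. Col5a3 was at 1.48 at 24 h and 0.29 at 6 h on the log2 scale, a difference of 1.19 (limma adjusted p = 0.0210). The Col5a3 difference did not pass with Agilent's processed signals. Lox, which crosslinks collagen, was at 1.41 and 0.16, a difference of 1.24 (adjusted p = 0.0238). Dcn, a fibril-binding proteoglycan, was at 1.13 and 0.17, a difference of 0.97 (adjusted p = 0.0275). Tgfbi was at 1.44 and 0.18, a difference of 1.26 (adjusted p = 0.0140), and Thbs1 was at 2.38 and 0.38, a difference of 2.00 (adjusted p = 0.00680). The groups of 2 arrays were too small for a check on outlying samples.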

How the results depend on the processing

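Named collagens kept their direction under all alternatives wherever they were called; among values of single collagens, 589 kept their side of the threshold, 39 no longer passed and 35 newly passed. Median centring left 0 calls of collagens at 6 h, at 24 h (either direction) and in the difference; it moved the median of all genes at 24 h by -0.09 and left 13 called genes in all, and the cause was not tested. Collagens lower at 24 h (1) numbered 2 with Agilent's processed signals, the series table or an offset of 16, and 0 with the 24 h arrays alone or the mean of a gene's probes. Collagens higher in the difference (1) numbered 0 with Agilent's signals or the series table, and 2 with the mean of probes or every probe tested. With the 6 h arrays alone, 4 collagens were higher and 1 lower at 6 h. Without the filter on dim probes, 1 collagen was higher in sham at 24 h.

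Same-numbered arrays deviated together (correlation 0.718 over 19135 genes), but the number is also the dye orientation and there are only 2 pairs. With it as a replicate block, calls were 6 higher and 3 lower at 6 h, 14 and 8 at 24 h, and 8 and 5 in the difference; the sham counts were 2 and 0.

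With each array left out in turn, 1 to 4 collagens were higher and 0 to 1 lower at 6 h, 7 to 13 and 0 to 6 at 24 h, 1 to 7 and 0 to 6 in the difference, and 0 to 3 and 0 to 1 in sham; 1 dye orientation then remains at that time.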

Other observations

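Some collagens are on the array under other names and fell outside the name rule. Emid2, which RefSeq now calls Col26a1, read -0.28 and -0.82 at 24 h (mean -0.55, limma adjusted p = 0.0996) and -0.20 at 6 h. A probe listed as 1110001D15Rik, now Col6a4, read -0.32 and -0.65 at 24 h (mean -0.48, adjusted p = 0.0597) and 0.01 at 6 h. Probes for Col11a1 and Col6a6 under clone names had too little signal to be tested.

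Of the 78 collagen probes, 46 were well above background in all 8 channels, and 22 were so in none. Of the 11 collagen probes that span an exon junction, 5 were tested.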
